A study of Homo sapiens with 6 samples.

Results

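PPIP5K2, FNBP1L and SLC26A2 were the 3 genes with the largest falls shared by both CDK16 hairpins, apart from CDK16 itself and 1 transcript known only by a clone name, among genes averaging 5 CPM or more in MDA-MB-231 cells, a human triple-negative breast cancer line. They were chosen by these falls, out of 41471 gene symbols in the knockdown table and 34157 in the Reb table, and each symbol occurred once in each table. The fall in the hairpin libraries is therefore a description of how the genes were found. Their levels in the inhibitor experiment were not used in the choice.

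The knockdown experiment held 3 libraries of MDA-MB-231 cells stably infected with a lentivirus, sorted by FACS, and carrying CDK16-sh1, CDK16-sh2 or, as the control, a scramble shRNA. The inhibitor experiment held 3 libraries of the same line treated for 48 h with DMSO or with rebastinib (Reb), a small molecule used by the study to inhibit CDK16, at 1 μM or 5 μM. Each of the 6 conditions had 1 library, so no difference below has a replicate check and no p-value is given. Both hairpins were compared with the same scramble library, so a level that was high or low there moves both fold changes at once. Intervals are 95% Clopper-Pearson intervals for counting error only, and "called" means at least 2-fold.

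The 3 genes have unrelated roles. PPIP5K2 encodes a kinase that adds a phosphate to inositol phosphates to make the energy-rich inositol pyrophosphates, which take part in phosphate sensing. FNBP1L, also called TOCA-1, encodes an F-BAR protein that binds curved membrane and brings CDC42 together with N-WASP, which starts branched actin through the Arp2/3 complex. SLC26A2 encodes a plasma membrane sulfate transporter. Its sulfate feeds the sulfation of glycosaminoglycans, and inherited loss of the transporter causes chondrodysplasias.

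PPIP5K2 lies on chromosome 5 from 103120149 to 103212799 and SLC26A2 on chromosome 5 from 149960737 to 149993455, both on the plus strand of GRCh38, as the deposited tables give them. FNBP1L lies on chromosome 1 from 93448131 to 93554661, also on the plus strand. Their exons covered 17270, 8606 and 5798 bases, against a median of 4350 over the tested genes. In the longest coding transcript the 3′ UTR took 11165 of 15407 bases in PPIP5K2, 5592 of 8080 in SLC26A2 and 3534 of 5341 in FNBP1L. All were poor in GC, with 37.2% in PPIP5K2, 38.7% in FNBP1L and 39.7% in SLC26A2, against a median of 48.2% over the 12940 tested genes (84.6%) with a GENCODE 29 transcript of the same name.

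The 250 bases before the RefSeq start site of each gene (GRCh38.p14, plus strand) are shown because the genes fell together. Capitals mark every match to one of 10 motifs searched on both strands in the 300 bases around the start site. The gene starts that the deposited tables give for PPIP5K2 and SLC26A2 fall inside the bases shown.
PPIP5K2, chr5:103120051-103120300: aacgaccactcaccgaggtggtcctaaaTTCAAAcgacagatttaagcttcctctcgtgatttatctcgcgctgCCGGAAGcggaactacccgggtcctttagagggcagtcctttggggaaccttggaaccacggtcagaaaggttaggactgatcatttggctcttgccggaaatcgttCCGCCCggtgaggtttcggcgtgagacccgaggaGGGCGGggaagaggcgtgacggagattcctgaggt
FNBP1L, chr1:93447868-93448117: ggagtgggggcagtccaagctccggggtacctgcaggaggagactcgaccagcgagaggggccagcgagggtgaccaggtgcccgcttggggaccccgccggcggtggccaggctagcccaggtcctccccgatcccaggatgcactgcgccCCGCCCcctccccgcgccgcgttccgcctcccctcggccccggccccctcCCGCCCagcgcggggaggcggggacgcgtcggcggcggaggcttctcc
SLC26A2, chr5:149960508-149960757: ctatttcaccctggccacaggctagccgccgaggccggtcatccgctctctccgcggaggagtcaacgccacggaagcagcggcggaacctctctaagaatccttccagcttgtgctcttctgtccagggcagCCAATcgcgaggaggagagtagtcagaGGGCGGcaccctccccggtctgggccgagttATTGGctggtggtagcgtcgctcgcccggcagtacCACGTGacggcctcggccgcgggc

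The 1 motif found in all 3 windows was the SP/KLF box GGGCGG, with 2 matches in PPIP5K2, 2 in FNBP1L and 1 in SLC26A2, but 45.0% of 35116 RefSeq windows held it. PPIP5K2 alone held the ETS motif CCGGAAG, 176 bases before the start site (10.3% of windows), and the cell cycle homology region TTTGAA (15.2%). SLC26A2 alone held the E-box CACGTG (7.26%), 24 bases before the start, and CCAAT (34.6%), which it held 2 times. None of the windows held the E2F motifs TTTCCCGC (1.63%) and TTTGGCGC (0.652%), the CRE TGACGTCA (1.85%), the AP-1 motif TGANTCA (7.71%) or TATAAA (11.5%). The GC content of the windows ran from 54.7% in PPIP5K2 through 66.0% in SLC26A2 to 75.7% in FNBP1L. These values exceeded those of 40.3%, 69.6% and 91.7% of all windows, whereas the transcripts exceeded 5.72% (PPIP5K2), 14.4% (SLC26A2) and 10.7% (FNBP1L) of tested genes in GC.

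The target of CDK16-sh1 is shown because a guide can also pair with other transcripts through its seed, bases 2 to 8 of the guide. It is coding sequence of CDK16, and no other annotated gene held it whole. Capitals mark the 7 bases that pair with the seed.
CDK16-sh1, chrX:47224860-47224880: gacctacattaagCTGGACAa

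The CDK16-sh1 seed site occurred 3 times in the longest PPIP5K2 transcript, 2 times in that of SLC26A2 and 0 times in that of FNBP1L. The windows of 21 bases around these sites, aligned to the target above, were as follows.
PPIP5K2, coding sequence, across an exon junction: taaaggatttccaCTGGACAa
PPIP5K2, 3′ UTR, chr5:103204297-103204317: cttgccttactatCTGGACAg
PPIP5K2, 3′ UTR, chr5:103206768-103206788: ccatggactagcaCTGGACAt
SLC26A2, coding sequence, chr5:149980662-149980682: aattctagtattgCTGGACAt
SLC26A2, 3′ UTR, chr5:149981977-149981997: gcagagcttgtagCTGGACAg

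Between 8 and 12 of the 21 bases of these windows equalled the target, the 7 of the seed site included. The longest unbroken run shared with the target was 9 bases in SLC26A2 and 8 in PPIP5K2 and FNBP1L. Seed sites were common, since 39.7% of 11745 tested coding genes held one. The median log2 fold change with CDK16-sh1 was −0.06 in genes with the site and −0.003 in those without. Transcripts with a site were longer, with a median of 4302 against 2967 bases. PPIP5K2, SLC26A2 and FNBP1L, with 3, 2 and 0 sites, all fell at least 2-fold with CDK16-sh1, but they were chosen by that fall. Whether the sites had a part in any fall was not tested.

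Total counts ran from 25838443 to 50303269 per library, and mitochondrial transcripts took from 7.19% to 16.4% of them. Of the markers of the line, VIM ran from 177 to 833 RPKM, CD44 from 31.8 to 81.0 and ANXA1 from 66.6 to 121. EGFR ran from 4.81 to 28.6 RPKM and CAV1 from 3.95 to 56.0, both lowest with 5 μM Reb. ESR1, PGR, CDH1, PTPRC and CD3E were all at or below 0.174 RPKM and PECAM1 and CDH5 at or below 0.406. EPCAM ran from 1.55 to 4.30 RPKM and ERBB2 from 2.56 to 6.54. RPKM is the deposited count scaled by exon length and by the library total. CDK16 fell from 3223 counts with scramble to 1360 with CDK16-sh1 (log2 fold change −1.52) and 846 with CDK16-sh2 (−1.82), so that the targeted gene was called lower in both hairpin libraries.

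PPIP5K2 had 1286 counts with scramble, 353 with CDK16-sh1 and 270 with CDK16-sh2. By length and depth these were 2.88, 0.640 and 0.569 RPKM. After TMM scaling the level was 47.2 CPM in the control and 10.7 CPM with each hairpin, so both hairpin libraries were equally low. In bulk libraries such as these, fewer cells with a transcript and less of it per cell cannot be told apart. The log2 fold change was −2.13 (−2.32 to −1.97) with CDK16-sh1 and −2.14 (−2.34 to −1.96) with CDK16-sh2, a 4.39-fold and a 4.40-fold fall. In all, 42 of 15295 tested genes fell further with CDK16-sh1, and 128 with CDK16-sh2, a place that follows from the choice by these falls.

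FNBP1L had 985, 327 and 165 counts in the same order, or 6.57, 1.76 and 1.03 RPKM. It was lowest in the CDK16-sh2 library. The log2 fold change was −1.86 (−2.05 to −1.69) with CDK16-sh1 and −2.46 (−2.72 to −2.23) with CDK16-sh2. Compared directly, CDK16-sh2 stood 0.60 below CDK16-sh1 on the log2 scale (−0.88 to −0.33), more than counting error.

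SLC26A2 had 557, 177 and 179 counts, or 2.50, 0.644 and 0.756 RPKM, and was lowest in the CDK16-sh1 library. The log2 fold change was −1.92 (−2.18 to −1.68) with CDK16-sh1 and −1.52 (−1.78 to −1.28) with CDK16-sh2. CDK16-sh2 stood 0.39 above CDK16-sh1 (0.09 to 0.71), whereas for PPIP5K2 the hairpins differed by −0.003 (−0.24 to 0.23). The hairpin that lowered the gene further was thus not the same for FNBP1L and SLC26A2. In CDK16-sh2, 413 tested genes fell further than SLC26A2.

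**Figure D1:**
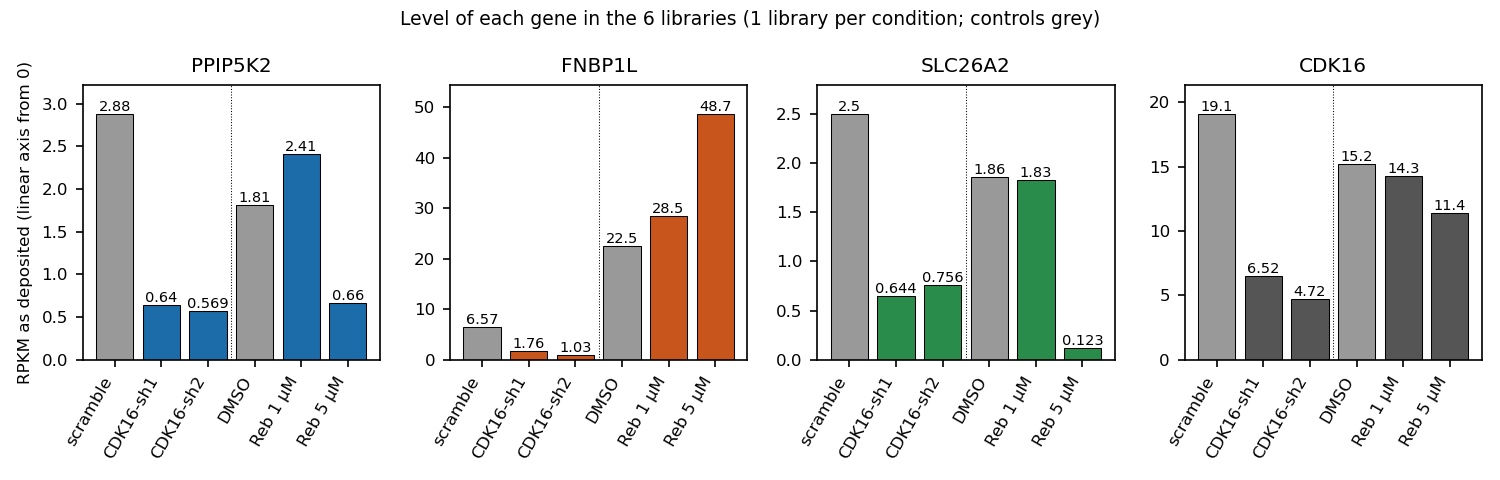
Deposited RPKM (linear vertical axes from 0) of PPIP5K2, FNBP1L, SLC26A2 and CDK16 in the 6 libraries, 1 bar per library, controls in grey and no error bars since each condition had 1 library. All 4 genes are lower with both hairpins than with scramble, while FNBP1L rises from 22.5 to 48.7 and SLC26A2 falls from 1.86 to 0.123 RPKM between DMSO and 5 μM Reb.

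Behind these values, 6.86% of the tested genes were called lower with CDK16-sh1, 7.62% with CDK16-sh2 and 1.44% (221 genes) with both, and 4.33%, 2.20% and 0.438% were called higher. The fall itself picked the genes, so nothing is read from these shares. Under library totals 1701 genes were called lower and 152 higher with CDK16-sh2, in place of 1166 and 336, and 328 and 33 with both hairpins, in place of 221 and 67. Mitochondrial transcripts took 16.2% of the counts in the CDK16-sh2 library, against 11.3% with scramble and 10.4% with CDK16-sh1, and their part in these values was not tested. In the ranking, which took genes averaging 5 CPM or more by the smaller of the hairpins' falls, PPIP5K2 stood at rank 1 with 2.13, FNBP1L at rank 2 with 1.86 and SLC26A2 at rank 4 with 1.52. Rank 3 was held by RP11-78I14.1 with 1.79, the transcript with a clone name, and rank 5 by CDK16 itself with 1.52. The next genes outside were MYLK, the myosin light chain kinase, with 1.49, PRKACB, a catalytic subunit of protein kinase A, with 1.47, and TMEM263 with 1.45. SLC26A2 therefore stood only just inside. Over all 15295 tested genes, without the limit of 5 CPM, PPIP5K2 would stand at rank 2, FNBP1L at rank 7 and SLC26A2 at rank 24.

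**Figure D2:**
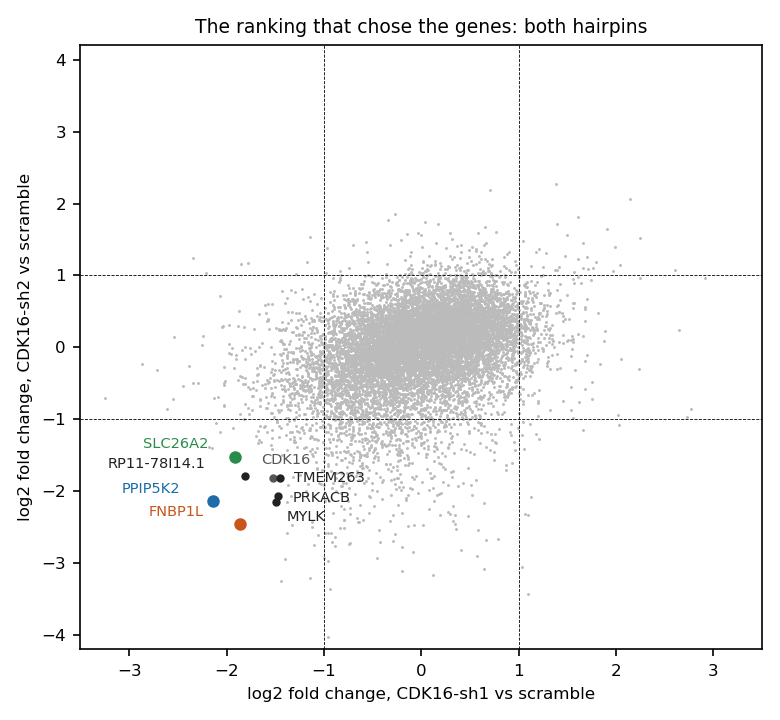
Log2 fold change of each gene averaging 5 CPM or more (grey points) in CDK16-sh1 (horizontal) and CDK16-sh2 (vertical) against scramble, with dashed lines at 2-fold and genes beyond the axes not drawn. PPIP5K2, FNBP1L and SLC26A2 lie in the lower left corner among the 8 top-ranked genes, which are named, and SLC26A2 has the smallest fall of the 3 with CDK16-sh2.

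The tested genes were cut into 5 groups of equal size by GC content. All 3 genes lay in the lowest group, whose median log2 fold change was −0.43 with CDK16-sh1, −0.14 with CDK16-sh2, 0.15 with 1 μM Reb and 0.41 with 5 μM Reb. In the group highest in GC the medians were 0.42, 0.11, −0.19 and −0.59. The genes were picked by these falls, so their place within the group is not evidence on GC content, whose part was not tested. With the trend on exon length and GC removed, the log2 fold changes were −1.58 and −1.77 for PPIP5K2, −1.39 and −2.23 for FNBP1L, and −1.44 and −1.25 for SLC26A2, all past 2-fold.

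**Figure D3:**
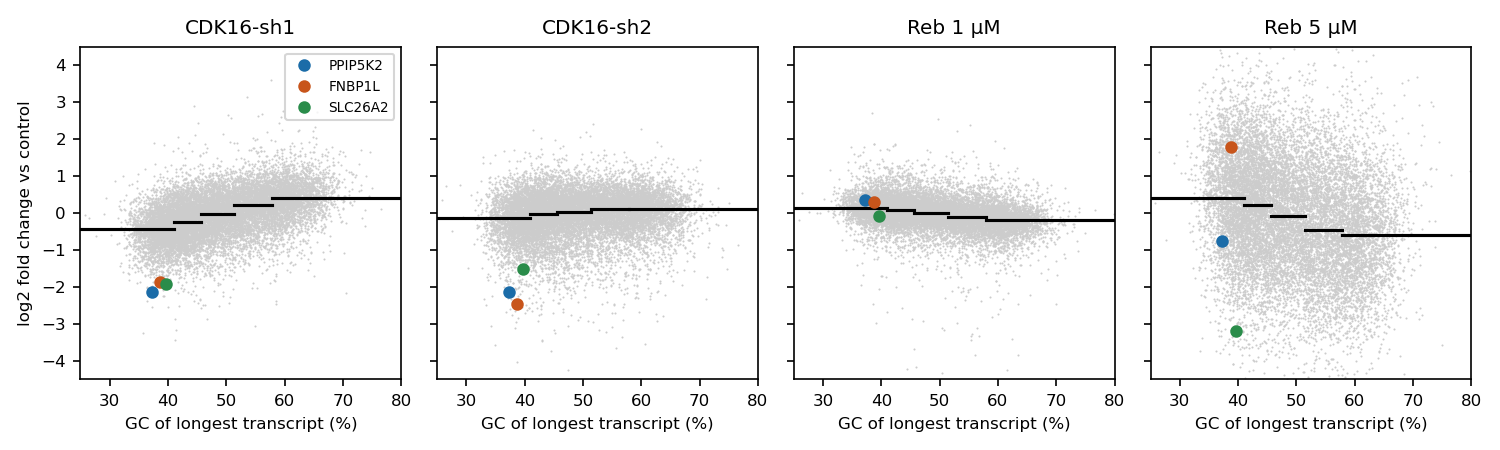
Log2 fold change against control (vertical, points beyond the axes not drawn) over the GC percent of the longest transcript (horizontal) for all tested genes with a known GC content (grey), the median of each of 5 GC groups (black lines) and PPIP5K2, FNBP1L and SLC26A2 (colored), 1 panel per treated library. The black lines rise with GC in CDK16-sh1, from −0.43 to 0.42, and fall with 5 μM Reb, from 0.41 to −0.59, and the colored genes lie below the line in both hairpin panels.

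The same genes did not move together under Reb. At 5 μM FNBP1L rose and SLC26A2 fell, while PPIP5K2 was above its control at 1 μM and below it at 5 μM, by less than 2-fold each time. The background was wide at the higher dose: 27.2% of 15655 tested genes were called lower and 23.6% higher at 5 μM, against 1.92% and 1.28% at 1 μM, and 1.08% were called lower and 0.645% higher at both doses. The split at 5 μM depended on the scaling, with 4254 genes lower and 3695 higher after TMM scaling, 6792 and 1835 under library totals and 6490 and 1734 by the deposited RPKM. None of the 3 genes was called at 1 μM. Mitochondrial transcripts took 16.4% of the counts in the 5 μM library against 7.19% with DMSO, and their part in the values below was not tested.

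FNBP1L had 6570 counts with DMSO, 8156 with 1 μM and 10630 with 5 μM Reb, or 22.5, 28.5 and 48.7 RPKM. The log2 fold change was 0.29 (0.24 to 0.34) at 1 μM, a rise that 19.5% of tested genes exceeded. It was 0.14 there with the trend on length and GC removed. At 5 μM it was 1.80 (1.76 to 1.85), a 3.49-fold rise that 10.2% of tested genes exceeded, and 1.11 under library totals. FNBP1L, called lower with both hairpins, was thus called higher at 5 μM.

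SLC26A2 had 804 counts with DMSO, 776 with 1 μM and 40 with 5 μM Reb, or 1.86, 1.83 and 0.123 RPKM. At 1 μM the difference was within counting error, −0.07 (−0.22 to 0.07). At 5 μM the log2 fold change was −3.19 (−3.72 to −2.76), a 9.10-fold fall, and 353 genes (2.25%) fell further. Between the doses the ratio was −3.11 (−3.64 to −2.69). With 40 counts left, the 5 μM value has the widest interval of those given for the gene.

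PPIP5K2 had 1570 counts with DMSO, 2055 with 1 μM and 429 with 5 μM Reb, or 1.81, 2.41 and 0.660 RPKM. It was highest at 1 μM, with a log2 fold change of 0.36 (0.27 to 0.46), and lowest at 5 μM, with −0.76 (−0.92 to −0.61). At 1 μM, 14.6% of the tested genes rose further. The fall at 5 μM was not called after TMM scaling, and 32.5% of the tested genes fell further. It was past 2-fold under scaling by library totals (−1.45) or the deposited RPKM was used (−1.33), settings in which the median of all genes moved by −0.68 and −0.64. With the trend on length and GC removed it was −1.12.

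CDK16 itself had 4996, 4609 and 2797 counts under DMSO, 1 μM and 5 μM Reb, and log2 fold changes of −0.14 (−0.20 to −0.08) and 0.27 (0.20 to 0.34). The value at 5 μM depended on the setting, at −0.42 under library totals and at 1.02, past 2-fold, with the trend on length and GC removed. The 221 genes called lower with both hairpins included 204 tested under Reb, of which 88 (43.1%) were called lower at 5 μM and 34 (16.7%) higher, beside 27.2% and 23.6% of all tested genes. SLC26A2 belongs to the former, FNBP1L to the latter and PPIP5K2 to neither. At 1 μM, 3 (1.47%) were called lower and 9 (4.41%) higher, beside 1.92% and 1.28%.

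**Figure D4:**
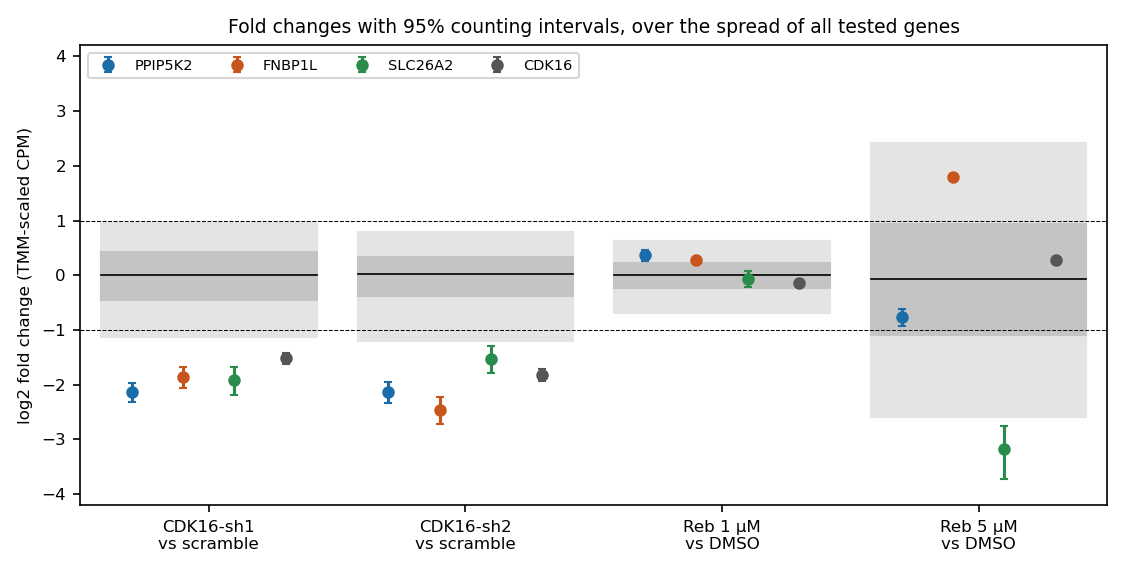
Log2 fold change of PPIP5K2, FNBP1L, SLC26A2 and CDK16 in each treated library (points, with 95% counting intervals) over the range from percentile 5 to 95 (light boxes), from 25 to 75 (dark boxes) and the median (black lines) of all tested genes, with dashed lines at 2-fold. The 3 genes lie below the light boxes with both hairpins, and at 5 μM Reb they spread from −3.19 for SLC26A2 to 1.80 for FNBP1L.

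The control libraries of both experiments differed for these genes. The tables came from separate experiments, so all 6 libraries were scaled together. This used the 15748 symbols that occurred once in each table and averaged 1 CPM or more over the 6 libraries. Any difference between the experiments in cells, virus or handling cannot be told apart. FNBP1L was at 33.2 CPM with scramble and 123 CPM with DMSO, a log2 ratio of −1.88 (−1.98 to −1.79). This 3.69-fold gap was about as large as the fall of FNBP1L with CDK16-sh1, and 4.29% of genes lay further down. PPIP5K2 was higher with scramble, at 43.3 against 29.3 CPM (0.56, 0.46 to 0.67), and so was SLC26A2, at 18.8 against 15.0 CPM (0.32, 0.16 to 0.48). Over these 15748 symbols the ratios had a median of 0.00 and an SD of 1.20, and 12.8% were at least 2-fold lower and 12.2% at least 2-fold higher with scramble.

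On this joint scale each gene had its own order of levels. PPIP5K2 ran from 43.3 CPM with scramble through 38.2 (1 μM Reb), 29.3 (DMSO) and 17.4 (5 μM Reb) to 9.77 and 9.71 with CDK16-sh1 and CDK16-sh2, and only the last step was within counting error. FNBP1L ran from 430 CPM with 5 μM Reb through 152 (1 μM) and 123 (DMSO) to 33.2 with scramble, 9.05 with CDK16-sh1 and 5.94 with CDK16-sh2, each step beyond counting error. SLC26A2 ran from 18.8 with scramble through 15.0 (DMSO) and 14.4 (1 μM Reb), which did not differ beyond counting error (0.06, −0.09 to 0.20), to 6.44 with CDK16-sh2, 4.90 with CDK16-sh1 and 1.62 CPM with 5 μM Reb. SLC26A2 was thus the only one of the 3 genes with a lower level under Reb than under a hairpin.

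The genes most like each one over the 4 log2 fold changes were sought among the 10554 genes that averaged 5 CPM or more in each experiment, by the root mean square difference. The value was 1.30 between PPIP5K2 and FNBP1L, 1.27 between PPIP5K2 and SLC26A2 and 2.54 between FNBP1L and SLC26A2. Closest to PPIP5K2 were the antisense RNA TGFB2-AS1 (0.456), ZBED6 (0.491) and the adducin gene ADD3 (0.549). Closest to FNBP1L were TXNRD1, which encodes a thioredoxin reductase (0.446), the Golgi protein gene GOLIM4 (0.458) and RNF152 (0.557). TXNRD1 had log2 fold changes of −1.16, −1.91, 0.25 and 1.86 against −1.86, −2.46, 0.29 and 1.80 in FNBP1L. Closest to SLC26A2 were the kinetochore gene CASC5 (0.351), the condensin gene SMC4 (0.402) and CASP8AP2 (0.406). CASC5 had −1.46, −1.25, 0.05 and −2.74, and SMC4 had −1.44, −1.12, −0.19 and −2.69, against −1.92, −1.52, −0.07 and −3.19 in SLC26A2. These likenesses use the values that chose the 3 genes and are descriptions.

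The 10 nearest tested genes, 5 on each side, were also examined in each experiment, so that the 10 were not always the same. Between midpoints they lay up to 5806 kb from PPIP5K2, against 711 kb from FNBP1L. Around PPIP5K2, 9 of 10 were below scramble with CDK16-sh1 and 7 with CDK16-sh2. The medians were −0.57 and −0.31 against −0.002 and 0.02 over all genes. The lowest were NUDT12 (−1.16 with CDK16-sh1) and FBXL17 (−1.53 with CDK16-sh2), the latter 4954 kb away. Around FNBP1L, 9 and 7 of 10 were below scramble, with medians of −0.40 and −0.23 and TMED5 at −1.33 in CDK16-sh2. Around SLC26A2, 2 and 8 of 10 were below scramble, with medians of 0.19 and −0.32, and PDGFRB, a receptor tyrosine kinase gene, stood at 1.08 with CDK16-sh1 and −2.18 with CDK16-sh2. None of the neighbours was called lower with both hairpins, but at a background of 1.44% such calls would be few among 10 genes. Under 1 μM Reb, 0 of the 10 neighbours of PPIP5K2 were below DMSO. Their median was 0.405, against 0.006 around FNBP1L, −0.109 around SLC26A2 and 0.002 over all genes. Under 5 μM Reb, 5 of the 10 neighbours of FNBP1L were called higher, beside 23.6% of all genes, with DR1 at 2.81. Another neighbour, RP11-488P3.1, had the largest change, at −1.11 with 1 μM and −6.14 with 5 μM. Around SLC26A2, 3 were called lower and 3 higher, near the background, with PPARGC1B at 3.60 and PDGFRB at −2.43.

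Exons of PPIP5K2 overlapped those of GIN1, on the minus strand, by 3 bases, and exons of SLC26A2 those of TIGD6, also on the minus strand, by 246 bases. GIN1 had 61, 68 and 79 counts in the scramble, CDK16-sh1 and CDK16-sh2 libraries and TIGD6 had 127, 156 and 75, so neither shared the pattern of its partner. Under Reb TIGD6 had 442, 314 and 391 counts while SLC26A2 had 804, 776 and 40. The library kit was stranded, but the strand setting of the counting is not given in the sources used here, and without it reads in the shared bases cannot be assigned.

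For PPIP5K2 the list was that of the inositol phosphate and pyrophosphate enzymes. Of 43 listed genes 37 were tested, and 1 was called lower with both hairpins and 0 higher, beside 1.44% and 0.438% of all genes. That gene was IMPA1, the inositol monophosphatase that releases free inositol, with 385, 165 and 177 counts and log2 fold changes of −1.49 and −1.01, the latter −0.86 with the trend on length and GC removed. The list median was −0.09 with CDK16-sh1 and −0.03 with CDK16-sh2, against −0.002 and 0.02 over all genes. PPIP5K1, the paralog with the same activity, named for that reason and outside the naming rule, had 246, 209 and 256 counts, values of −0.51 and 0.16. At 5 μM Reb, 13 of 38 were called lower and 8 higher, beside 27.2% and 23.6% of all genes, with a median of −0.47 against −0.07 over all genes. The largest changes were those of the phospholipase C gene PLCD4, from 445 to 20 counts (−3.30), and of NUDT3, a phosphatase that removes the pyrophosphate, from 6499 to 18368 counts (2.61). INPP5K, an inositol polyphosphate phosphatase gene, was the 1 gene of 38 called at both doses, at −1.02 and −1.76. Over all genes 1.08% were called lower and 0.645% higher at both doses. The INPP5K call was lost at the lower dose under library totals (−0.97), by the deposited RPKM (−0.92) and with the trend on length and GC removed (−0.89).

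For FNBP1L the lists were the F-BAR family and the genes of actin assembly. Of 22 F-BAR genes 17 were tested, of which 10 were below scramble with CDK16-sh1 and 12 with CDK16-sh2, with medians of −0.34 and −0.32 against −0.002 and 0.02 over all genes. None was called lower or higher with both, beside 1.44% and 0.438% of all genes. With only genes averaging 5 CPM or more kept, the F-BAR medians were −0.05 with CDK16-sh1 and −0.20 with CDK16-sh2. FNBP1 and TRIP10, the nearest paralogs and named for that, had −0.75 and −0.48, and 0.42 and 0.05. Of 29 CDC42, WASP/WAVE and Arp2/3 genes 27 were tested and 0 were called with either hairpin, beside 6.86% lower and 4.33% higher with CDK16-sh1 over all genes and 7.62% and 2.20% with CDK16-sh2. The medians were −0.20 and 0.12, the latter −0.08 under library totals. At 5 μM Reb the F-BAR genes other than FNBP1L were called lower in 9 of 18 and higher in 2, beside 27.2% and 23.6% of all genes, and their median was −0.58 against −0.07. FCHO1, a gene of early endocytosis, was at −2.25 and FCHSD1 at −1.97. The actin assembly genes were called higher in 9 of 27 and lower in 2, beside the same shares. Their median was 0.53, and it turned to −0.16 under library totals, where the median of all genes was −0.75. The largest were WASF3, a WAVE protein gene, at 2.96 (494, 818 and 1789 counts) and NCK1, an adaptor gene, at 2.44. CDC42 and WASL, which encodes N-WASP, are the direct partners of FNBP1L and were named for that. CDC42 had 8073 counts with DMSO and 13838 with 5 μM (1.89), and WASL 1356 and 2627 (2.06). With the hairpins CDC42 was at 0.41 and 0.34 and WASL at −0.70 and −0.69.

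For SLC26A2 the lists were sulfation, glycosaminoglycan chain synthesis and the other sulfate and anion transporters, and 1.44% of all genes were called lower with both hairpins. Of 26 tested sulfation genes 1 was so called, HS2ST1, a heparan sulfate sulfotransferase, with 737, 284 and 273 counts (−1.64 and −1.32), and the medians were −0.12 and 0.11. Of 21 tested glycosaminoglycan genes 1 was so called, CHSY3, a chondroitin synthase, with 220, 89 and 99 counts (−1.56 and −1.03), and the medians were −0.33 and 0.15. Under library totals the medians with CDK16-sh2 turned to −0.08 for sulfation and −0.05 for chain synthesis, where the median of all genes was −0.18. Of 12 further sulfate and anion transporters, 4 were tested and 0 were called with either hairpin. Over all genes 6.86% were called lower and 4.33% higher with CDK16-sh1, and 7.62% and 2.20% with CDK16-sh2. At these shares few or no calls would be found among 4 genes. PAPSS1 and PAPSS2, which make the activated sulfate donor and were named for that, had −0.16 and 0.23, and −1.48 and −0.45.

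At 5 μM Reb, 10 of 25 sulfation genes were called lower and 4 higher, with a median of −0.43, and 6 of 20 chain genes were called lower and 6 higher, with a median of −0.29. Over all genes 27.2% were called lower and 23.6% higher, with a median of −0.07. The largest falls were those of the sulfotransferase genes CHST6 (−2.75) and CHST12 (−2.51), and of B4GALT7 (−2.77) and XYLT2 (−2.87), which build the linker that starts the chain. CHST6 had only 72, 122 and 4 counts with DMSO, 1 μM and 5 μM Reb, so its value lies near the floor. B3GALT6, another linker enzyme gene, was called lower at both doses, beside 1.08% of all genes. Its values were −1.14 and −1.72, the former −0.88 with the trend on length and GC removed. Among the transporters SLC26A10 fell from 432 to 40 counts (−2.29) and SLC26A6 from 1285 to 165 (−1.85), whereas SLC26A11 was at −0.06 and SLC26A1 at 0.05. SLC26A2, at −3.19, stood below every tested gene of the 3 lists around it at this dose.

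**Figure D5:**
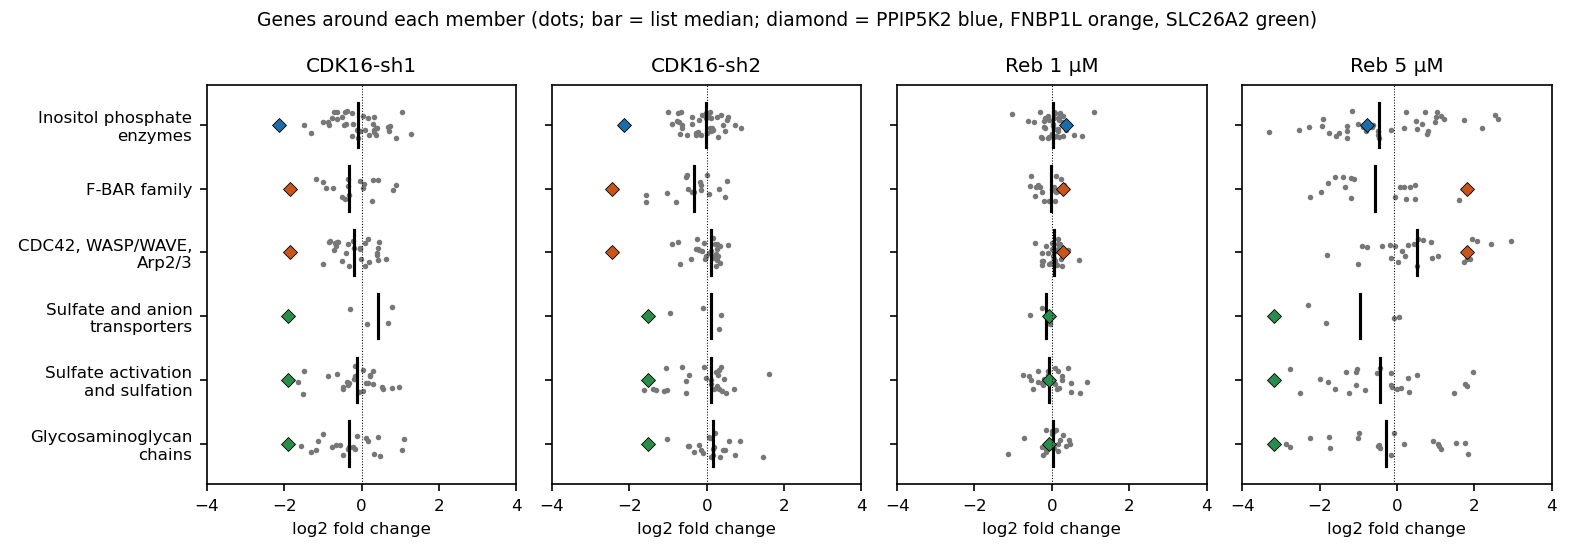
Log2 fold change (horizontal) of each tested gene of the 6 lists around PPIP5K2, FNBP1L and SLC26A2 (dots, spread vertically for visibility) in the 4 treated libraries, with list medians (bars), the median of all genes (dotted lines) and the gene the list was made for (diamonds). The diamonds stand at or near the low end of their lists in both hairpin panels, while at 5 μM Reb FNBP1L (1.80) lies near the high end of the F-BAR genes and SLC26A2 (−3.19) to the left of its 3 lists.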

How the data were processed

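Stranded mRNA libraries from MDA-MB-231 cells were sequenced by the authors on a HiSeq X 10. Per the submitters' processing notes the tools were Trimmomatic, featureCounts and Subread 1.5.1, on GRCh38. The aligner, annotation release and strand setting are not given in the sources used here. The authors deposited whole-number counts per gene symbol, not normalized. The deposited RPKM values equal these counts scaled by exon length and library total, to within 4.9e-06.

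Total counts ran from 25838443 to 50303269. Counts were scaled within each experiment by TMM (edgeR 4.0.16 in R 4.3.3), over the 15295 and 15655 genes that averaged 1 CPM or more, and log2 ratios were taken with a prior count of 2. No test across genes was run, since each condition had 1 library. The calculation was tested on simulated counts with 200 changed genes. Intervals are 95% Clopper-Pearson intervals (SciPy 1.17.1) of 2 libraries' counts. The intervals treat each counted read as separate and cover counting error only.

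The members, the 6 gene lists and the motifs were chosen with earlier results of these data known. Named were the 3 genes and CDK16, the genes up to rank 8, the 3 most like each gene, the 5 nearest on each side, and, in each list, genes called on 1 side with both hairpins or at both doses and the 2 largest changes at 5 μM. PPIP5K1, FNBP1, TRIP10, CDC42, WASL, PAPSS1, PAPSS2, SLC26A11 and SLC26A1 were added for their roles after values were seen. ARPC5 and WIPF1 were added as the actin assembly genes called lower at 5 μM. Promoters are from RefSeq (GRCh38.p14; 3 of 3 matched), transcripts from GENCODE 29. The target of CDK16-sh2 is not reported here. Neighbours spanning over 3000000 bases were left out as symbols used at several places. Alternatives were DESeq2 1.42.0 size factors, library totals, other prior counts and filters, deposited RPKM with 0.1 added, and removal of the length and GC trend.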

Additional observations from a re-analysis of the deposited data

How the results depend on the processing

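No paired analysis was possible because each condition had 1 library and no label pairs libraries. The 3 genes' fold changes were recomputed under 8 alternatives, and none of the 96 values that resulted reversed a called direction. All 48 hairpin values stayed at least 2-fold lower. They rest on the same counts that chose the genes by their falls, so this is a description and not a check of the falls. Of the 96 values, 75 lay within the counting interval of the value reported. With the trend on length and GC removed, PPIP5K2 was at −1.58, −1.77, 0.23 and −1.12 (CDK16-sh1, CDK16-sh2, 1 μM and 5 μM Reb), FNBP1L at −1.39, −2.23, 0.14 and 1.46, and SLC26A2 at −1.44 and −1.25 with the hairpins. Under library totals, 5 μM values were −1.45 for PPIP5K2, 1.11 for FNBP1L and −3.86 for SLC26A2, and FNBP1L was at 0.34 with 1 μM. The deposited RPKM gave −1.33 for PPIP5K2, and 0.34 and 1.11 for FNBP1L. Without a filter PPIP5K2 was at −0.96 and FNBP1L at 1.60 with 5 μM. DESeq2 size factors gave 1.87 and a filter of mean 5 CPM 1.74 for FNBP1L. Under library totals the scramble to DMSO ratio was 0.67 for PPIP5K2 and −1.77 for FNBP1L, alternatives that were chosen after seeing the data, as were those for the ratios between hairpins and between doses and the filter of 5 CPM for single genes. The count of genes called lower with both hairpins was 1001 without a filter and 117 with a mean of at least 5 CPM, and that of genes called higher 455 and 29, 33 under library totals and 27 by RPKM. At both doses 1227 and 69 were called lower, and 998 and 20 higher, under the same filters, and 57 higher by RPKM. Of 72 list medians recomputed, 20 moved by over 0.1, among them all 6 at 5 μM under library totals, where the median of all genes moved by −0.68. Of 72 list counts, 5 changed by over 1.5 times, each by 1 gene, among them that of INPP5K, whose call at both doses was lost under library totals. Likeness by Pearson r across the 6 libraries shared 0 of the 3 nearest genes for each of PPIP5K2, FNBP1L and SLC26A2, so these names depend on the measure. Of the 3 genes, depth limits SLC26A2 most, with 40 counts at 5 μM.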
